A study of Mus musculus with 4 samples.

Results

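The nuclear genes for the subunits of oxidative phosphorylation were followed in 2 compartments of the mouse colon, its surface and its crypts, after feed with or without heme, the red pigment that carries iron in meat. They were chosen by symbol alone, as names that begin with Nduf followed by a, b, c, s or v and a digit, with Uqcr, with Cox4 to Cox8 or with Atp5, together with Sdha, Sdhb, Sdhc and Sdhd. This rule found 81 of the 19938 genes with a probe set of their own. By respiratory complex they are 33 genes of complex I, 4 of complex II, 8 of complex III, 19 of complex IV and 17 of complex V, with Ndufa4 and Ndufa4l2 placed in complex IV. All mice were male C57BL/6, aged 11 weeks, on feed rich in fat (40% of the energy) and poor in calcium for 14 days. The heme groups had heme in the feed at 0.5 µmol/g, and the control groups had none. Laser capture microdissection, which cuts chosen cells from a section under the microscope, separated surface from crypt cells in frozen colon, and the RNA was pooled over 3 mice on heme and over 4 mice on the control diet. Each of the 4 groups (heme surface, control surface, heme crypt, control crypt) is 1 pool on 1 Affymetrix array, and on each diet the same mice gave both pools.

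The respiratory chain of the inner mitochondrial membrane passes electrons from NADH (complex I) and succinate (complex II) through ubiquinone to complex III, then by cytochrome c to complex IV, where oxygen is reduced. Complexes I, III and IV pump protons, and complex V, the ATP synthase, uses the return flow of protons to make ATP. In the colon, epithelial cells oxidise butyrate from bacterial fermentation as a main fuel, and cells mature as they move up from the crypt to the surface.

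Values are log2 expression values, and every difference is one log2 value minus another. With 1 array a group there is no replicate check, no spread between mice and no test, and having so few arrays limits how precise each value is. Higher and lower in a count mean a difference of at least 1.5-fold (0.585 on the log2 scale), with 2-fold given beside it. The counts run over genes whose mean of the 4 arrays was at or above 5.75, the middle of all gene values, called the floor here. The floor was reached by 10181 genes, including 74 of the 81 subunit genes. The other 7 were Cox4i2, Cox6a2, Cox6b2, Cox7b2, Cox8b, Cox8c and Ndufa4l2, each an alternative gene of complex IV, with values between 3.02 and 5.83 on all arrays. Since these are bulk samples, fewer cells of a type and less RNA per cell cannot be told apart.

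The labelled compartments were checked first. The 6 surface colonocyte markers, among them the water channel gene Aqp8 and the keratin gene Krt20, had a median surface minus crypt difference of 3.57 on heme and 4.63 on the control diet. On the heme crypt array these markers summed to a linear level of 3327, against 1245 on the control crypt array, and to 37113 on heme surface, against 31568 on control surface. Over the 5 crypt base and progenitor markers above the floor, the median surface minus crypt difference was -2.39 on heme and -2.84 on the control diet. Their median heme minus control difference was -0.35 in surface cells, with 2 of 5 above 0. In crypt cells it was -0.31, with 0 of 5 above 0. The 4 mitosis markers above the floor had heme minus control differences above 0 in both compartments, with a median of 0.51 in the surface pools and 1.59 in the crypt pools. The medians of 4 immune and 4 endothelial markers were -0.09 and 0.08 in surface cells, and -0.63 and -0.65 in crypt cells. Over 8 smooth muscle and fibroblast markers the median heme minus control difference was -0.52 in surface cells and -0.69 in crypt cells. The part of these shifts in the values below was not tested.

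In surface cells the subunit genes were higher on heme as a group. Their median level was 9.93 on the heme surface array and 9.28 on the control surface array, and the median of the 74 differences was 0.49 (1.41-fold), while the median of all genes was -0.01. Of the 74, 70 were above 0 (94.6%), against a background of 48.7% of all genes. At least 1.5-fold higher were 32 subunit genes (43.2%), where 9.88% of all genes were, and 0 were as much lower, where 7.29% of all genes were. At least 2-fold higher were 7 (9.46%), with a background of 3.11%, and 0 were 2-fold lower, with a background of 1.69%. Of the 2162 genes of every kind with a mean level between 8.48 and 10.34, the middle range of the subunit genes, 14.8% were higher by 1.5-fold, and their median was 0.10. Within that range 19 of 36 subunit genes were higher, with a median of 0.61. When the gene values were made to have the same distribution on all arrays (quantile normalization), 18 subunit genes (24.3%) reached the 1.5-fold size in place of 32, with a median of 0.35, while 7.67% of all genes did.

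**Figure D1:**
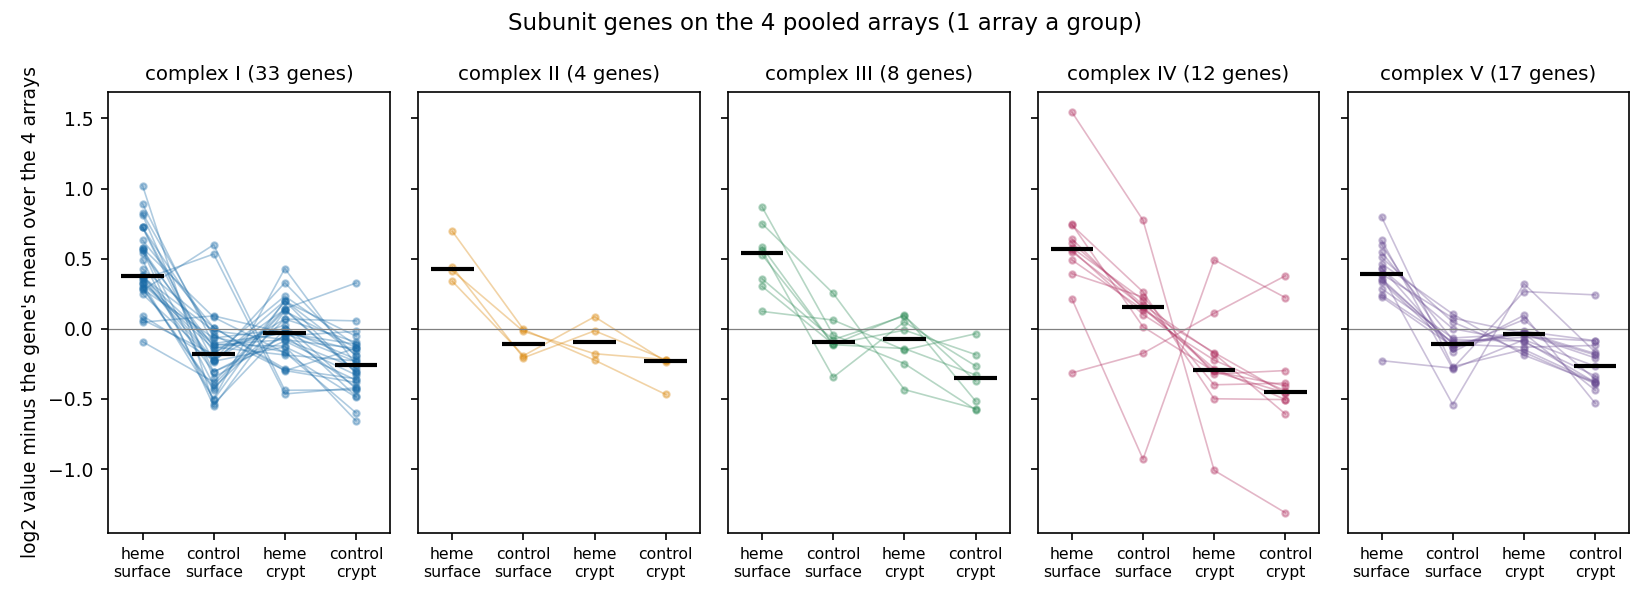
Log2 value of each subunit gene minus its own mean over the 4 arrays (vertical axis), by array and by respiratory complex. Each thin line is a gene, each black bar the median, and only the 74 genes at or above the floor are drawn. The heme surface array was the highest of the 4 for 64 of them (86.5%), against 27.4% of all genes.

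Complex I oxidises NADH with a core of flavin and iron-sulfur subunits, around which many accessory subunits are arranged. Of its 33 genes 18 were at least 1.5-fold higher on heme in surface cells (all genes 9.88%). The median difference of the 33 was 0.62. Ndufb6, an accessory subunit of the membrane arm, had log2 values of 10.47 on heme surface and 8.91 on control surface, against 9.44 on heme crypt and 8.97 on control crypt. The heme surface array stood above the other arrays, with a difference of 1.56 (2.94-fold), larger than that of any other subunit gene in surface cells. Ndufc1, a small membrane subunit, had 9.28 on heme surface and 8.12 on control surface, and 8.42 on heme crypt and 8.05 on control crypt. Ndufa9, which lies where the membrane and matrix arms meet, had 10.40 and 9.29 on the heme and control surface arrays, and 9.97 and 9.71 on the heme and control crypt arrays. Both were over 2-fold higher in surface cells, by 1.16 and 1.11.

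Ndufs1, which carries iron-sulfur clusters of the NADH-oxidising module, had 10.54 on heme surface and 9.51 on control surface, and 9.73 on heme crypt and 9.49 on control crypt, a surface difference of 1.03. Ndufs5, an accessory subunit, had 8.98 on heme surface and 7.98 on control surface, and 7.97 on heme crypt and 7.44 on control crypt, a surface difference of 1.00. Of the 6 core subunits measured 4 reached 1.5-fold in surface cells (all genes 9.88%). Beside Ndufs1 these were Ndufs8 (0.82), Ndufv2 (0.67) and Ndufv1 (0.60), while Ndufs3 (0.47) and Ndufs7 (0.25) fell short of that size. Ndufa10 (1.00) and Ndufa5 (0.98), both accessory subunits, were just under 2-fold. Ndufs6 (0.58) lay just under 1.5-fold. In 3 complex I genes the surface difference was below 0. Ndufa1 had 9.72 on heme surface and 10.05 on control surface, Ndufa6 had 10.09 and 10.27, and Ndufa7 had 6.84 and 6.88, so that their differences were -0.33, -0.18 and -0.05.

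Complex II links the citric acid cycle to the chain. In surface cells the heme minus control differences of its 4 genes were all above 0, at 0.70 for the iron-sulfur subunit gene Sdhb, 0.65 and 0.53 for the membrane anchor genes Sdhc and Sdhd, and 0.43 for the flavoprotein gene Sdha. Sdhb had 10.12 on heme surface and 9.42 on control surface, and 9.20 on heme crypt and 8.96 on control crypt. In complex III the core proteins and the Rieske iron-sulfur protein had larger differences than each of the 5 small subunits. This split by role was made after the values were seen. Uqcrfs1, the Rieske protein, had 9.39 on heme surface and 8.48 on control surface, and 8.27 on heme crypt and 7.95 on control crypt. The surface differences were 0.91 for Uqcrfs1, 0.90 for Uqcrc1 and 0.69 for Uqcrc2, with a median of 0.90 over these 3. The 5 small subunits had a median of 0.43, between 0.06 for the hinge protein gene Uqcrh and 0.64 for Uqcrq.

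Complex IV reduces oxygen, and its nuclear genes surround a core that the mitochondrial genome encodes. Of its 12 genes above the floor 3 were at least 1.5-fold higher on heme in surface cells (all genes 9.88%). Ndufa4, first described as a complex I subunit and now assigned to complex IV, had 10.87 on heme surface and 9.73 on control surface, and 11.15 on heme crypt and 10.88 on control crypt. Its heme minus control difference in surface cells was 1.14, and the control surface array was the low one of the 4. Cox7a1 (0.77) and Cox7b (0.73) were the other two. Cox4i1, the ubiquitous form of subunit 4, differed by 0.17 and Cox7a2l, which helps to join complexes III and IV into supercomplexes, by -0.14.

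In complex V, 5 of 17 genes were at least 1.5-fold higher on heme in surface cells (all genes 9.88%). The 5 genes of the catalytic F1 head and its central stalk, Atp5a1 (0.47), Atp5d (0.46), Atp5e (0.35), Atp5b (0.35) and Atp5c1 (0.34), were all below 1.5-fold. The smallest differences in the complex were those of the c-ring gene Atp5g2 (0.05) and the membrane subunit gene Atp5j2 (0.31). Atp5md, a small membrane subunit, had 10.32 on heme surface and 9.26 on control surface, and 9.38 on heme crypt and 9.15 on control crypt. Its surface difference was 1.07 and the heme surface array was the high one. Atp5pb (0.92), of the stalk that holds the head still, Atp5k (0.77) and Atp5l (0.62), both small membrane subunits, were the other genes of this size beside the c-ring gene Atp5g1 (0.92).

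**Figure D2:**
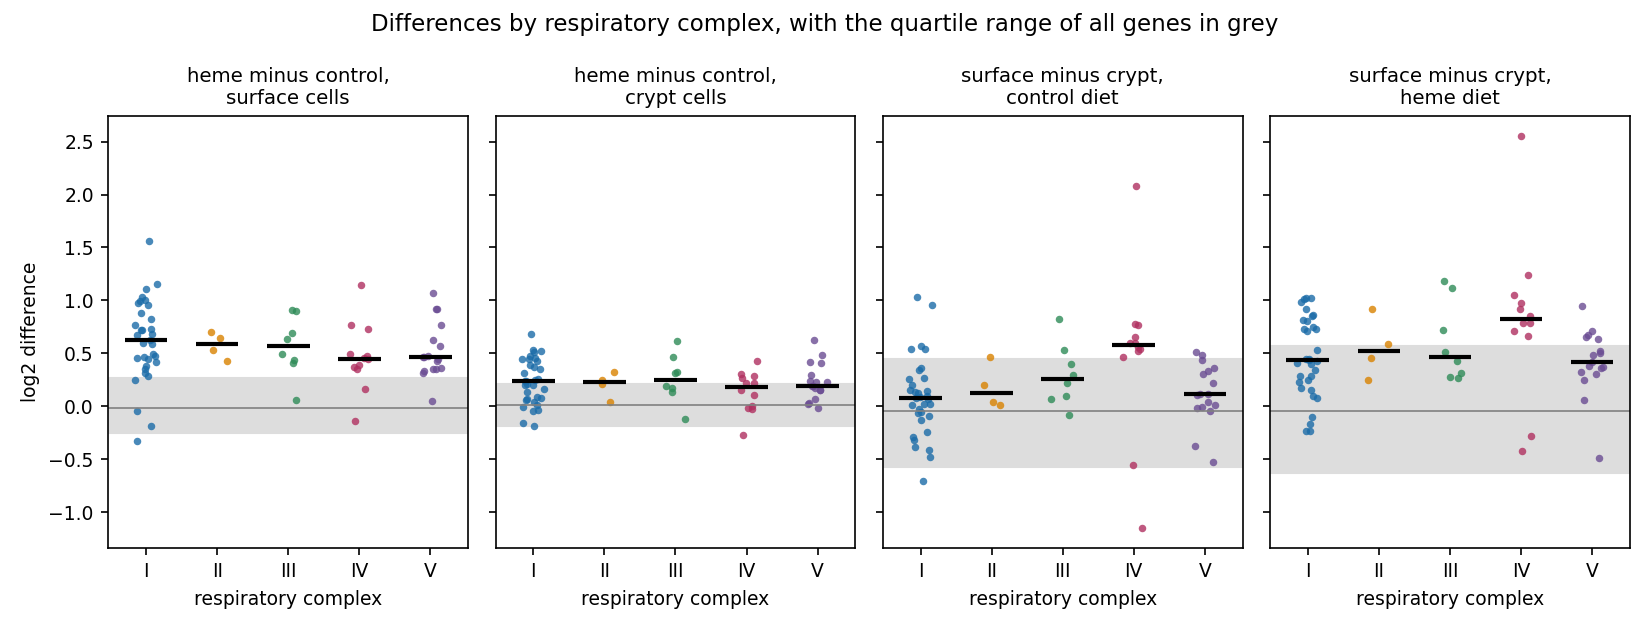
Log2 difference of each subunit gene (points) by respiratory complex, with the median of each complex (black bar), for heme minus control in each compartment and for surface minus crypt on each diet. The grey band is the quartile range of all genes and the grey line their median. In surface cells the heme medians are 0.62, 0.59, 0.57, 0.45 and 0.46 for complexes I to V. In crypt cells they lie between 0.18 and 0.25. For surface minus crypt, complexes II and V turn below 0 under quantile normalization.

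Crypt cells showed a smaller difference in the same direction. The median level was 9.41 on heme crypt and 9.07 on control crypt, and the median difference was 0.22 (1.16-fold), while the median of all genes was 0.01. Above 0 were 64 of 74 genes, with a background of 51.7%. At least 1.5-fold higher were 3 (4.05%), a share close to the background of 5.35%, and 0 were as much lower (background 5.19%). At 2-fold the counts were 0 higher (background 1.45%) and 0 lower (background 1.02%). Ndufs8, a core iron-sulfur subunit of complex I, had 8.80 on heme crypt and 8.11 on control crypt, and differed by 0.69. Atp5k (0.63) and Uqcrq (0.61) were the other 2. When log2(2 to the power of the value, plus 32) replaced the value, 1 gene passed (1.35%, all genes 3.75%), and when arrays were centred on cytosolic ribosomal protein genes 10 did (13.5%, all genes 8.92%). The surface colonocyte markers were also higher on heme crypt (median 1.24), and their part in the crypt difference was not tested.

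The heme difference was larger in surface than in crypt cells for 67 of 74 genes (all genes, 48.2%), with a median gap of 0.31. At least 1.5-fold larger in surface cells were 14 (18.9%), with a background of 9.6%, and 0 were as much smaller (background 7.34%). Only Ndufb6 passed 2-fold (1.08, background 2.91%), and 0 genes were 2-fold smaller (background 1.73%). Of the 14, 10 belong to complex I. Above 0 in both compartments were 63 of the 74 (85.1%), where 32.2% of all genes were. The 3 genes above 0 in neither compartment were Ndufa1, Ndufa6 and Cox7a2l. Under quantile normalization 4 genes reached 1.5-fold (5.41%), below the 8.42% of all genes, so the excess over the background was lost, and the median gap was 0.17.

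**Figure D3:**
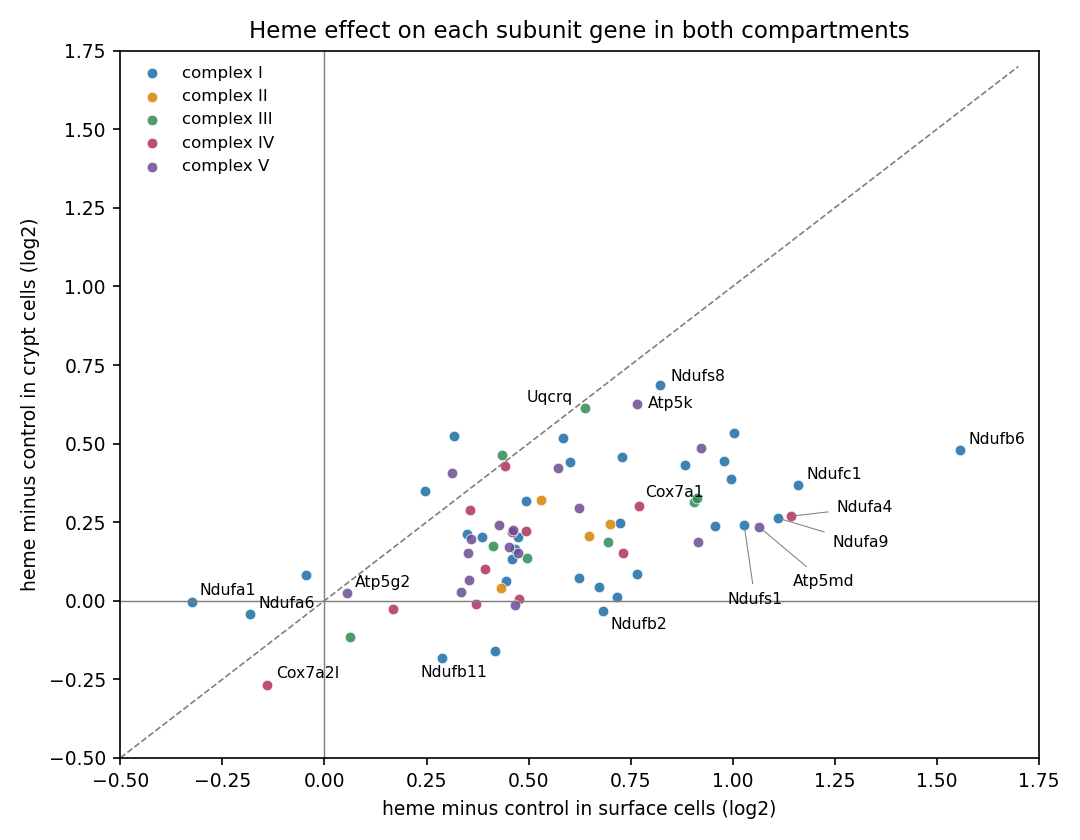
Heme minus control (log2) in surface cells (horizontal axis) and in crypt cells (vertical axis) for the 74 subunit genes, coloured by complex. Most points lie below the dashed line of equal differences. Ndufb6 lies farthest to the right, at 1.56 in surface and 0.48 in crypt cells.

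Surface and crypt cells were then compared within each diet, to set mature cells beside the crypt, where cells divide. On heme the median surface minus crypt difference was 0.50, 67 of 74 genes were above 0 (background 47.8%), and 33 were higher in surface cells by 1.5-fold or more (44.6%, background 24.7%). As much lower were 0 (background 26.6%), 8 were 2-fold higher (10.8%, background 15.0%) and 0 were 2-fold lower (background 15.7%). On the control diet the median was 0.13, 54 of 74 were above 0 (background 47.5%), 9 were at least 1.5-fold higher (12.2%, background 20.2%), and 2 as much lower (2.7%, background 24.6%). Genes of every kind with a mean level between 8.48 and 10.34 had a median of 0.32 on heme, with 38.6% at least 1.5-fold higher. The 36 subunit genes in that range had a median of 0.53, with 17 higher. On the control diet the medians were 0.20 and 0.13, so the subunit genes lay below genes of similar level. Of the 36, 25 were above 0 there, against 59.9%, and 6 were higher, a smaller share than of all genes in that range. By sign alone, 54 of the 74 were above 0 on both diets (73.0%, all genes 40.0%). Above 0 on neither diet were 7 (9.46%, all genes 44.8%), and above 0 on heme only were 13 (17.6%, all genes 7.78%).

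These figures depend on scaling. Under quantile normalization the medians were 0.11 on heme and -0.0032 on the control diet. On heme 10 subunit genes were then at least 1.5-fold higher (13.5%, all genes 23.5%), so the excess over all genes turned into a deficit, and on the control diet 3 were (4.05%, all genes 20.6%). As much lower were 3 on heme (4.05%, all genes 25.2%) and 8 on the control diet (10.8%, all genes 24.4%). With cyclic loess, 32 were higher on heme (43.2%, all genes 26.1%) and 18 on the control diet (24.3%, all genes 22.8%). Centring on the cytosolic ribosomal protein genes, which were lower in surface cells (median -1.08 on heme and -1.06 on the control diet), moved the median of all genes to 1.11 on heme and 1.20 on the control diet, and that of the subunit genes to 1.65 and 1.37. At least 1.5-fold higher were then all 74 on heme (all genes 72.9%) and 72 on the control diet (97.3%, all genes 77.9%).

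Complex IV had the highest median of the 5 complexes in this comparison. It was 0.82 on heme, with 10 of 12 genes at least 1.5-fold higher in surface cells (all genes 24.7%). On the control diet it was 0.58, with 6 of 12 higher (all genes 20.2%). Under quantile normalization the complex IV median was 0.25 on heme, with 2 of 12 genes higher (all genes 23.5%) and 2 lower (all genes 25.2%). Complex I was then above complex IV (0.27). On the control diet the complex IV median was then 0.20, with 1 of 12 higher, Cox7a1 (all genes 20.6%), and 2 lower (all genes 24.4%). The other complexes had medians of 0.42 to 0.52 on heme and 0.08 to 0.25 on the control diet. Cox6a1, the ubiquitous form of subunit 6a, had 10.80 on heme surface and 10.32 on control surface, and 9.56 on heme crypt and 9.55 on control crypt. Both surface arrays were above both crypt arrays, by 1.24 on heme and 0.77 on the control diet. Cox7b differed by 1.05 on heme and 0.47 on the control diet. In complex III, the ubiquinone-binding protein gene Uqcrb (1.18 on heme, 0.82 on control) and Uqcrfs1 (1.12 and 0.53) were 2-fold higher on heme. In complex I, Ndufb6 (1.02 on heme, -0.05 on control), Ndufb9 (1.02 and 0.34) and Ndufs5 (1.01 and 0.54) were. The share of the 74 subunit genes 2-fold higher on heme was 10.8%, below the background of 15.0%. Ndufa1 was the only complex I gene 2-fold higher on the control diet (1.03, background 12.0%), and differed by 0.71 on heme.

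Several subunits have alternative genes. Cox7a1, the form of subunit 7a best known from heart and skeletal muscle, had 9.80 on heme surface and 9.02 on control surface, and 7.24 on heme crypt and 6.94 on control crypt. Surface arrays were higher by 2.55 on heme (5.87-fold) and 2.08 on the control diet (4.24-fold). The smooth muscle markers Acta2 and Myh11 went the other way on the control diet, at -1.36 and -1.15, and the median of the 8 muscle and fibroblast markers was -0.60 on heme and -0.73 on the control diet, with 2 of 8 above 0 on each. All 9 markers of this list summed to linear levels of 2054 on heme surface and 2825 on control surface, and 2542 on heme crypt and 4331 on control crypt. The 4 endothelial markers had surface minus crypt differences above 0 on both diets, with medians of 1.37 on heme and 0.98 on the control diet. They summed to linear levels of 941 on heme surface and 939 on control surface, against 322 on heme crypt and 480 on control crypt. Their part in the Cox7a1 difference was not tested. Cox7a2, the form of most tissues, was higher in surface cells by 0.79 on heme and 0.54 on the control diet, while Cox7a2l was lower, at -0.42 on heme and -0.55 on the control diet. Ndufa4 was lower in surface cells, at -0.28 on heme and -1.15 on the control diet (2-fold lower, background 13.3%), a direction that turned to 0.09 on the control diet under centring on ribosomal protein genes. Ndufb11 was also lower on the control diet (-0.70), and it too turned, to 0.54. Under that centring all 74 genes were above 0 on both diets, Cox7a2l included. Of the 3 genes that encode the same c-ring protein of complex V, the heme minus control difference in surface cells was 0.92 for Atp5g1, 0.57 for Atp5g3 and 0.05 for Atp5g2.

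**Figure D4:**
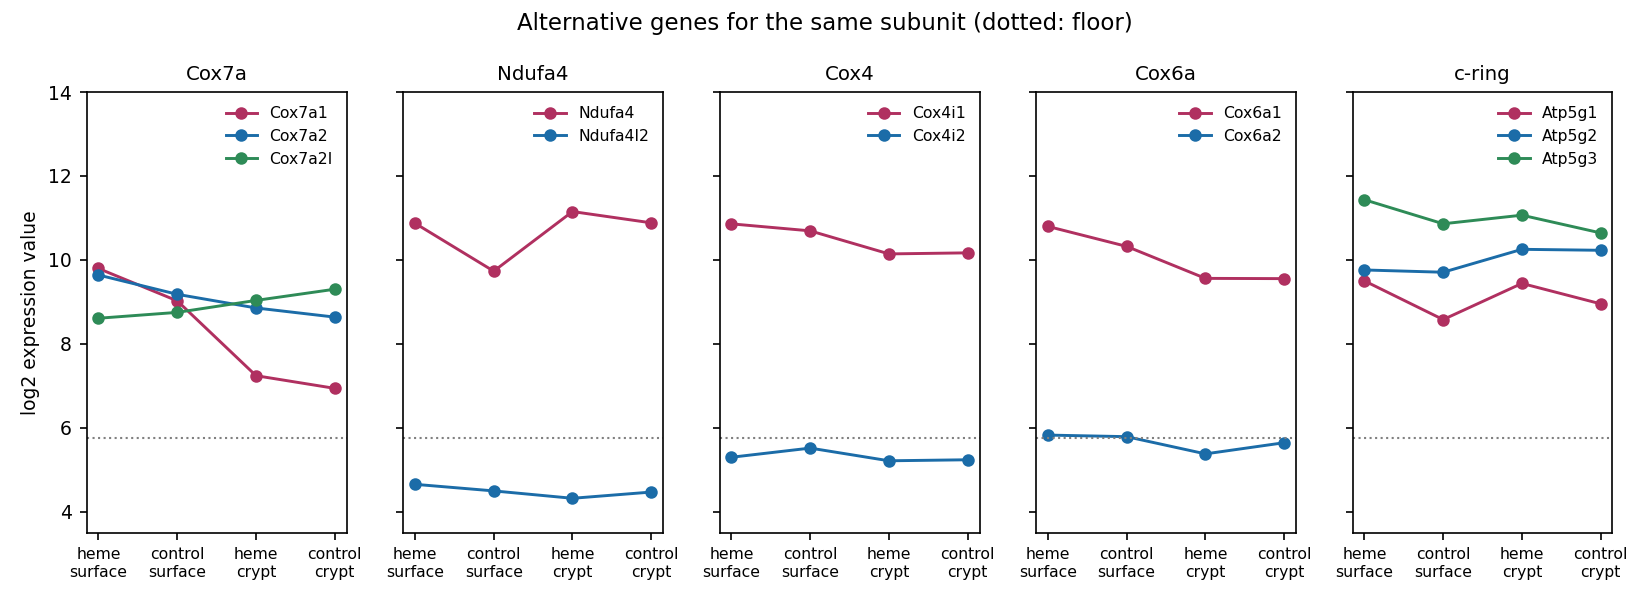
Log2 value on each array of genes that encode alternative forms of the same subunit, 1 panel a subunit, with the floor of 5.75 dotted. Levels can be compared between arrays but not between genes, since probes differ. Cox7a1 had 9.80 and 9.02 on the heme and control surface arrays, against 7.24 and 6.94 on the heme and control crypt arrays. Cox4i2, Cox6a2 and Ndufa4l2 were below the floor in mean level.

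Of the 81 genes, 16 have several probe sets, up to 6 for Atp5l, and most of them gave similar differences. Their heme minus control differences in surface cells lay more than 0.2 apart for 3 genes, Ndufb11, Ndufa11 and Ndufc1. For Ndufb11 the probe sets gave 0.54 and 0.03, so its single value is uncertain.

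The promoters of genes that differed together are shown to let the sequences be set beside the values. RefSeq windows of GRCm38.p6, from 250 bases before to 50 after the start, were matched for 66 of the 81 genes. Motifs were searched on both strands, namely that of NRF1 (a regulator of respiratory genes), CCGGAAGT (ETS factors), TCAAGGTCA (ESRRA), TGACGTCA (CREB) and AAGATGGC (YY1). None of the 43 matches overlapped another. In the sequences below, each covering the 250 bases before the start and read 5′ to 3′ on the gene's strand, capitals mark a motif. Ndufb6 is shown as the gene with the largest heme difference in surface cells (chr4:40279422-40279671, minus strand, no motif), Ndufs5 as a 2-fold higher gene with an NRF1 match (chr4:123718187-123718436, minus strand), Sdha for 3 NRF1 matches (chr13:74350241-74350490, minus strand) and Uqcrfs1 for a CREB match (chr13:30545317-30545566, minus strand). Cox7a1 (chr7:30183921-30184170, plus strand) and Ndufa4 (chr6:11907451-11907700, minus strand) are shown as the genes that differed most between surface and crypt on the control diet, in opposite directions, and hold no motif.
Ndufb6: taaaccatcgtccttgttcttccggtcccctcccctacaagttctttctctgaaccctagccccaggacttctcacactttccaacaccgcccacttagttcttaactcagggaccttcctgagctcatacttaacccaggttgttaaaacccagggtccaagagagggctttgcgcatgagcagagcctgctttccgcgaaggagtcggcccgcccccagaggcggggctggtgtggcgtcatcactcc
Ndufs5: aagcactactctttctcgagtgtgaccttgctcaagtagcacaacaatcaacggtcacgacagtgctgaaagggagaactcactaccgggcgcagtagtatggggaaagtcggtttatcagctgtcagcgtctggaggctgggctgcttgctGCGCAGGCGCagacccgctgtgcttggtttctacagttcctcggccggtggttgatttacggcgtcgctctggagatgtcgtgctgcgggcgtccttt
Sdha: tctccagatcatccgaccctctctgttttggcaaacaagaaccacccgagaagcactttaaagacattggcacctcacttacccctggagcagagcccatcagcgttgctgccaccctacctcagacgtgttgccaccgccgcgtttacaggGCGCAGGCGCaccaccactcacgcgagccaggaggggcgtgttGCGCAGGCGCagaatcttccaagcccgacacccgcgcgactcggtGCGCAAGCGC
Uqcrfs1: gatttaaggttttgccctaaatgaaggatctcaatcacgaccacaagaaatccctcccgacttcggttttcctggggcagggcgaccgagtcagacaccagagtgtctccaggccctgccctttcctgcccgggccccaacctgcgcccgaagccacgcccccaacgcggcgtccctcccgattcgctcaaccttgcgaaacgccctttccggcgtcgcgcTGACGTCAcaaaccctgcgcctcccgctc
Cox7a1: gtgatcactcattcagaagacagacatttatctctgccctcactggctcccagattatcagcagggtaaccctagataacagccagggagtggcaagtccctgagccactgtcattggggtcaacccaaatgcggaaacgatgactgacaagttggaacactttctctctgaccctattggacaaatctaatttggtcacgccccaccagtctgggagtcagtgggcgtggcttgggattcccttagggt
Ndufa4: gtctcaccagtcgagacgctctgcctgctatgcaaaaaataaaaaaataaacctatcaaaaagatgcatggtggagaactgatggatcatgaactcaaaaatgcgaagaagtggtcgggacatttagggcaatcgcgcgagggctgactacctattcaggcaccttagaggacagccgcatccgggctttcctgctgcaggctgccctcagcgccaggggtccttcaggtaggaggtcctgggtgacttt

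NRF1 matches were found in 16 of 66 subunit genes (24.2%), against 5.19% of all 27025 genes with a window and 12.0% of those above the floor. YY1 matches were found in 10 (15.2%), against 3.19% of all genes and 5.6% of those above the floor. ETS matches were in 5 (7.58%, all genes 4.31%, above the floor 9.4%), CREB matches in 4 (6.06%, 2.03%, 3.65%) and ESRRA matches in 2 (3.03%, 0.466%, 0.305%). The heme minus control difference in surface cells had a median of 0.48 over the 16 genes with an NRF1 match, and 0.49 over the 47 above the floor without one. For YY1 the medians were 0.73 over 10 genes with a match and 0.48 over 53 without. Most of these 10 belong to complex I, which had a median of 0.62, and its part in this contrast was not tested. A match is a run of letters and not a shown binding site. Of the 10 YY1 matches 8 began after the start (80.0%, against 40.2% of matches in all genes), all on the sense strand, between positions 23 and 46 from the first transcribed base. These 8 are shown with 30 bases each, because they share position and orientation, with capitals marking the motif.
Atp5j2 (chr5:145191500-145191529, minus strand): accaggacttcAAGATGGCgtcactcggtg
Ndufa3 (chr7:3617384-3617413, plus strand): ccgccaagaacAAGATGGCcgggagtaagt
Ndufa9 (chr6:126849097-126849126, minus strand): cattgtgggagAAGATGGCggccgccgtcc
Ndufb8 (chr19:44555393-44555422, minus strand): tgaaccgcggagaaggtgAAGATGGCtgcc
Ndufc1 (chr3:51408915-51408944, minus strand): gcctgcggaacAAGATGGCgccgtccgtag
Ndufs4 (chr13:114388045-114388074, minus strand): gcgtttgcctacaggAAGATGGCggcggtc
Ndufs6 (chr13:73328433-73328462, minus strand): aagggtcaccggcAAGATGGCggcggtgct
Ndufs7 (chr10:80249462-80249491, plus strand): aggccgaggccAAGATGGCggcgctggcgg

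Other genes of mitochondrial energy metabolism were set beside the subunits. Of all genes, 9.88% were at least 1.5-fold higher on heme in surface cells and 7.29% as much lower. The TCA cycle list had a median heme minus control difference of 0.61 in surface cells, with 6 of 12 genes at least 1.5-fold higher, led by Suclg2 (1.03), Fh1 (0.95), Mdh2 (0.93) and Idh3g (0.88). Other electron donors to ubiquinone had a median of 0.65, with 4 of 7 higher, namely Etfa (0.92), Etfb (0.88), Sqor (0.67) and Etfdh (0.65). Pyruvate dehydrogenase and its regulators had 6 of 12 higher and 1 lower. Pdk4, the kinase that switches the enzyme off, had 9.95 on heme surface and 6.15 on control surface, and 5.28 on heme crypt and 4.62 on control crypt, a surface difference of 3.80. Pdk3, another such kinase, differed by 1.68, and Pdp2, a phosphatase that reactivates the enzyme, by -1.24. Pdp1, another such phosphatase, went the opposite way to Pdp2, at 0.63. The other higher genes of this list were Dlat (0.82), Pdhb (0.72) and Mpc1 (0.70). Among 6 carrier and channel genes of the inner and outer membranes (median 0.49), 2 were higher, the adenine nucleotide translocase genes Slc25a4 (1.04) and Slc25a5 (0.65), while the phosphate carrier gene Slc25a3 (0.13) and the channel gene Vdac3 (0.04) differed least. Cytochrome c1 (Cyc1) differed by 0.78, Ndufab1 by 0.48 and cytochrome c (Cycs) by 0.46, which the symbol rule does not reach.

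Genes that build the complexes differed less in surface cells. The lists were not matched by level to the subunit genes. The share of all genes at least 1.5-fold higher on heme was 9.88%, and that as much lower 7.29%. At a mean level between 8.48 and 10.34, the middle range of the subunit genes, the share higher was 14.8%. Of 11 complex I assembly genes 0 were at least 1.5-fold higher on heme (median 0.20), and of 20 complex IV assembly genes 1 was, Higd1a (1.26), with a list median of 0.20. Medians were 0.34 for complex V, -0.07 for complex III and -0.06 for complex II assembly. Mitochondrial ribosomal protein genes had a median of 0.28, with 10 of 74 higher, and protein import genes 0.30, with 3 of 22. Both shares were close to that of all genes. The regulators of mitochondrial biogenesis had a median of -0.17, with 0 of 14 higher and 2 lower. Of these, the coactivator gene Ppargc1a had 7.48 on heme surface and 8.88 on control surface, and 6.18 on heme crypt and 6.96 on control crypt, so that it was lower on heme in both compartments (-1.40 and -0.78). Between surface and crypt on the control diet, protein import (-0.91) and mitochondrial ribosomal protein genes (-0.55) had medians below 0, where the subunit genes had 0.13.

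**Figure D5:**
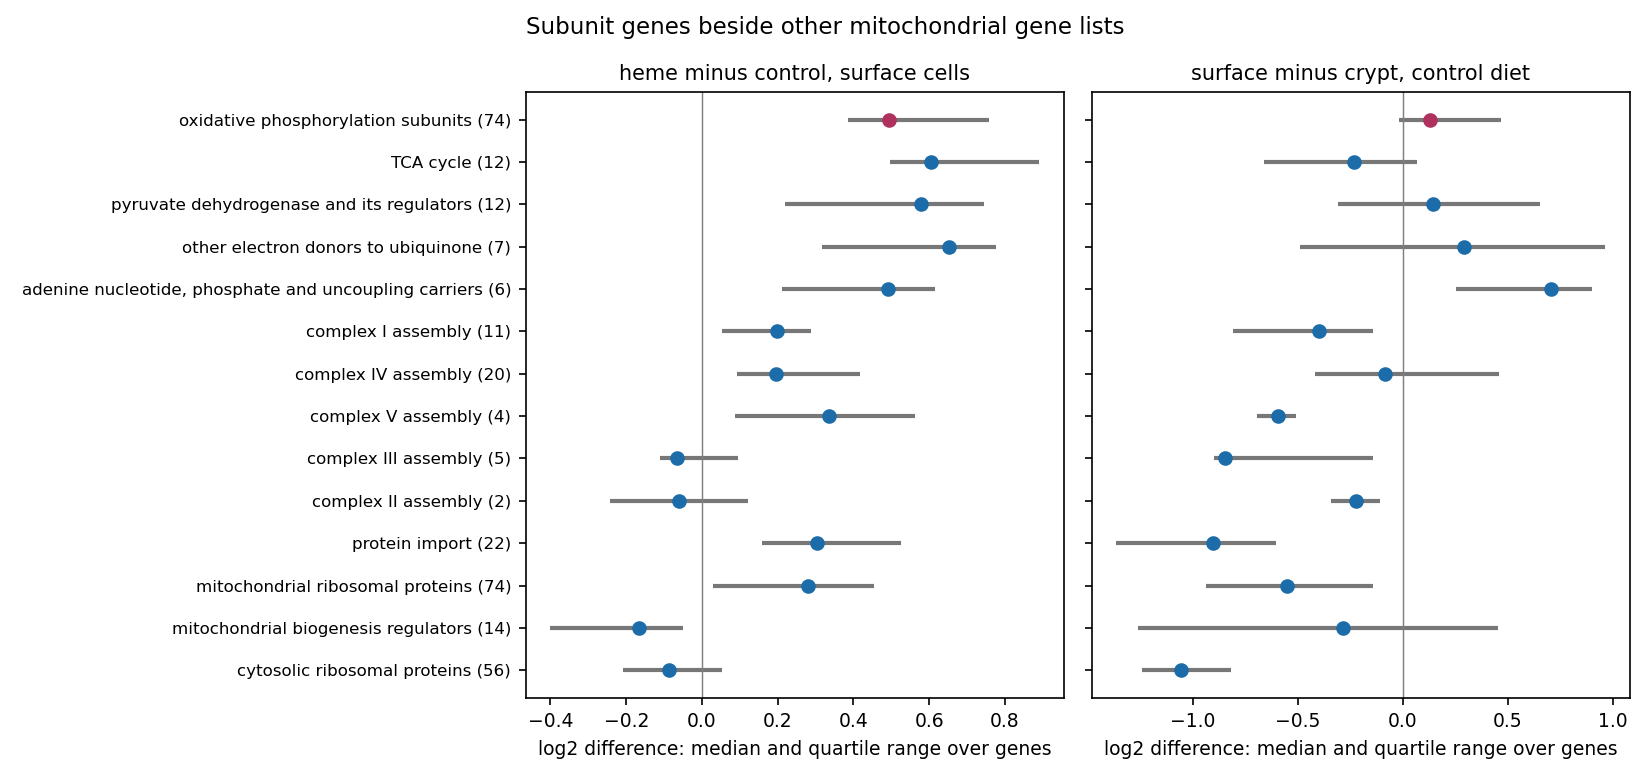
Median (point) and quartile range (bar) of log2 differences for the subunit genes and 13 other gene lists, for heme minus control in surface cells (left) and surface minus crypt on the control diet (right). The number of genes at or above the floor is in parentheses. On the left the subunit genes (0.49) lie below the TCA cycle list (0.61) and above protein import (0.30). The right panel depends on scaling, and under quantile normalization the subunit genes lie at -0.0032.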

How the data were processed

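Each probe set has a deposited log2 value, for which the submitters' processing notes name RMA (background correction, quantile normalization of probes, summary per probe set). The RMA version, and which arrays it was run over, is not stated there. Of 35556 probe sets, 21789 have 1 gene symbol, and 21698 of these were updated to RefSeq symbols. A gene is the mean of its probe sets with a single symbol, and the 1621 with several symbols named no gene. The members, lists and motifs were chosen with earlier results of these data known, and the roles by complex part after the values were seen. Genes were named by size of difference (2-fold, or the largest per complex and list), as catalytic core subunits or as alternative forms. Levels of different genes were not ranked, since probes differ. Alternatives covered scaling (ribosomal centring, cyclic loess, quantile normalization), a pseudocount of 32, the floor, probe sets and membership. Leaving out genes with several probe sets was chosen after seeing the data. Python 3.11.15, numpy 2.4.6, pandas 2.3.3, matplotlib 3.10.9 and limma 3.58.1 under R 4.3.3 were used. The size rule was run on simulated data with planted 2-fold differences only. That run does not cover smaller differences, such as the medians given here.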

Additional observations from a re-analysis of the deposited data

Results flagged for a closer look

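Ndufb2, an accessory subunit of complex I, had opposite heme differences in the compartments. It had 6.38 on heme surface and 5.70 on control surface (0.68 higher), and 5.96 on heme crypt and 5.99 on control crypt (-0.03), a gap of 0.71. The gap was not tested, because each group has 1 array, and the crypt difference is near 0.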

How the results depend on the processing

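No paired analysis was possible because each group has 1 array, and leaving out a replicate was not possible for the same reason. The median heme minus control difference of the subunit genes stayed above 0 under the alternatives run, between 0.35 and 0.54 in surface cells and between 0.20 and 0.35 in crypt cells. Quantile normalization of gene values gave a surface median of 0.35 and 18 genes at least 1.5-fold apart, a gap between compartments of 0.17 with 4 genes, and surface minus crypt medians of 0.11 on heme with 13 genes and -0.0032 on the control diet. Higher subunit genes were then 5.41% for the gap (all genes 8.42%) and 13.5% for surface minus crypt on heme (all genes 23.5%), so both lost their excess over all genes. It also turned complex II (-0.093 on heme, -0.30 on control) and complex V (-0.17 on heme, -0.27 on control). For surface minus crypt, 43 of 74 subunit genes were then above 0 on heme in place of 67, and 37 in place of 54 on control. Of those at least 1.5-fold apart on heme before this scaling, Atp5d (-0.014) and Sdha (-0.072) turned. Centring on cytosolic ribosomal protein genes gave a crypt heme median of 0.35 with 10 genes, and surface minus crypt medians of 1.65 with 74 genes on heme (all genes 72.9% higher) and 1.37 with 72 on the control diet (all genes 77.9%). All 74 were then above 0 for surface minus crypt on both diets, so every gene that was below 0 turned. Among them were Ndufa4 (0.089) and Ndufb11 (0.54) on the control diet. Cyclic loess gave 0.23 with 20 genes for surface minus crypt on the control diet, 18 of them higher (24.3%, all genes 22.8%). With log2 of the linear value plus 32, 1 gene passed in crypt cells. The cause of these shifts was not tested. Differences between mice cannot be seen with pooled arrays, and values near the floor are the least certain.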

Other observations

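Some probe sets carry the symbols of both a subunit gene and a near-identical gene and were not used above. In surface cells the heme minus control difference was 0.52, 0.49 and 0.38 for 3 probe sets of Cox7c and Gm12338, 0.48 for both probe sets of Ndufb4 and Ndufb4b, and 0.80 for that of Ndufs5 and Ndufs5-ps. Of the subunits that the mitochondrial genome encodes, the probe sets of COX2, the copper-binding subunit of complex IV, differed by -0.10 and -0.09 in surface cells, and those of ND3, a membrane subunit of complex I, by 0.38 and 0.30. In crypt cells the COX2 probe sets differed by -0.26 and -0.23, and those of ND3 by -0.12 and -0.10.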
